A study of Mus musculus with 6 samples.

Results

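The nuclear receptor genes Nr4a1, Nr4a2 and Nr4a3, the zinc finger genes Egr1, Egr2 and Egr3, the surface receptor gene Cd69 and the repressor gene Bhlhe40 are all switched on when a T cell meets its antigen. Their 8 transcripts were followed in T cells grown under conditions that favour follicular helper T (Tfh) cells, the helper subset of B cell follicles. The genes were chosen by name, and every probe set that the platform annotation assigns to 1 of them alone was taken, which gave 17 of 45037 probe sets and 8 of 18193 genes. Nr4a2 had 6 probe sets, Nr4a3 had 3, Egr2 and Egr3 had 2 each, and the other genes had 1 each. Levels were measured on 3 Affymetrix arrays of SAP-deficient cells and 3 of wild-type (WT) cells. SAP is the adaptor protein made by Sh2d1a that links SLAM-family receptors to kinases of the Src family. All cells carried the transgenic OT-II receptor, so every T cell saw the same ovalbumin peptide. They were sorted as naive CD4+CD44loCD62L+CD25- cells and cultured for 3.5 days with that peptide and with T-cell-depleted splenocytes that mitomycin C had kept from dividing. Both genotypes received IL-6 at 100 ng/ml and IL-21 at 50 ng/ml. TGF-β was neutralised with 20 µg/ml of antibody and IL-4 with 10 µg/ml, and antibodies to IL-12 and IFN-γ were added too. Age, the Sh2d1a allele and the number of mice behind each array are not stated in the labels. P-values therefore measure only the spread between these arrays, which may be technical in part.

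Antigen binding to the T cell receptor raises intracellular calcium and activates the Ras and MAP kinase pathway. Calcium acts on the Nr4a genes through calcineurin, NFAT and MEF2 factors, and MAP kinase acts on the Egr genes through SRF and its Elk partners. NR4A proteins are orphan nuclear receptors that limit T cell activation and mark tolerant and exhausted T cells. EGR1 is an early activator, while EGR2 and EGR3 induce inhibitors of signalling and are known to support Tfh differentiation in mice. Transcripts of the NR4A and EGR genes are short-lived after a stimulus. CD69 holds activated T cells in lymphoid tissue by removing the exit receptor S1PR1, and BHLHE40 sustains cytokine production while repressing Il10.

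Promoter windows of the 3 Nr4a genes and of Egr2 are shown because the RefSeq promoter table (build GRCm38.p6) matched only these 4 of the 8 genes. The Nr4a1 and Egr2 windows shown lie inside the annotated genes, which begin at 101253902 and 67534469. For Egr2 the window shown is 1 of 5 listed. Each window has 300 bases, written 5′ to 3′ on the gene's strand, with capitals marking the core of the cAMP response element (CRE core), TGACG or its reverse complement CGTCA, and the CArG box that binds SRF.
Nr4a1 (chr15:101266596-101266895, plus strand): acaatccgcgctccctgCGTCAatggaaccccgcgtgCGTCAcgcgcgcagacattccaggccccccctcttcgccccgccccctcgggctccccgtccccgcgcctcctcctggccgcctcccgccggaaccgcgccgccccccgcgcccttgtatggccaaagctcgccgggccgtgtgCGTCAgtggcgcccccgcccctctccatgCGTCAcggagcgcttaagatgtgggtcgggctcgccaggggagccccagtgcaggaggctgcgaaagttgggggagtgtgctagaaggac
Nr4a2 (chr2:57123954-57124253, minus strand): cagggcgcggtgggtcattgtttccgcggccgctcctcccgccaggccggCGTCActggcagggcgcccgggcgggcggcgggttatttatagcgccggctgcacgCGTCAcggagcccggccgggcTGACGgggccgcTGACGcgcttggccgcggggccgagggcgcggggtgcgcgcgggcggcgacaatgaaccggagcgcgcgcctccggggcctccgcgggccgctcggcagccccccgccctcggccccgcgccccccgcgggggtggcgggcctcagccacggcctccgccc
Nr4a3 (chr4:48045055-48045354, plus strand): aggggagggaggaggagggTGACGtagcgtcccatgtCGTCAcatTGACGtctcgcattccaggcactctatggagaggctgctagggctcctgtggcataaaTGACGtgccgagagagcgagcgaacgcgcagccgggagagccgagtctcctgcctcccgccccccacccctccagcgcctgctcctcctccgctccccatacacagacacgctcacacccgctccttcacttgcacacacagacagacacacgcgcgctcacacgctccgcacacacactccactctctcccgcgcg
Egr2 (chr10:67537680-67537979, plus strand): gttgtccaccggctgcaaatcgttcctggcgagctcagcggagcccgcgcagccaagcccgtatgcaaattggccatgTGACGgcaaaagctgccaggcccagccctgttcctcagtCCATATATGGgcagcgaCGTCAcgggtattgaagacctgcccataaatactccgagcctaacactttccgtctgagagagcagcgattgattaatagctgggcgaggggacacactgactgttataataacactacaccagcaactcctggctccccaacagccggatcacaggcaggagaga
The Nr4a1, Nr4a2 and Nr4a3 windows held 4 CRE cores each. Of 32851 windows of the same length in the table, 20.8% held at least 1 core and 0.231% held 4 or more. Among the 6218 windows with a GC content of at least 64.7%, the lowest of the 3 Nr4a windows, these shares were 32.4% and 0.563%. The Egr2 window shown held 2 cores and 1 CArG box, a motif found in 1.63% of windows. The Egr2 windows starting at 67537619 and 67537620 overlap it and held the same numbers. The Egr2 window starting at 67537316 held 0 cores and 1 CArG box, and that starting at 67535249 held 0 of either. The full element TGACGTCA (1.79% of windows) and the NR4A monomer site AAAGGTCA (1.51%) were in none of the 8 windows listed for these genes, 5 of which belong to Egr2. The EGR site GCGNGGGCG, found in 5.55% of windows, occurred once in the Nr4a1 window and once in the Nr4a2 window. The E-box CACGTG (7.15% of windows) was in another Egr2 window. All motifs were searched on both strands, and the full element contains the core. A match here is a string of letters and not a bound site.

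The cells expressed T cell markers, and Sh2d1a followed the labels. It was at 5.47, 4.10 and 4.92 in SAP-deficient replicates 1 to 3, against 9.50, 8.52 and 9.39 in WT replicates 1 to 3 (log2 levels here and below, on which 1 unit is a doubling). The difference was -4.31 (limma, adjusted p = 0.0501 over genes by genotype alone, and 1.99e-07 with the matched pairs described below as a block). The 8 measured T cell markers averaged 11.31 to 11.72 on SAP-deficient arrays and 11.36 to 11.75 on WT arrays. B cell markers averaged 5.45 to 5.70 and 5.62 to 5.80, and myeloid and dendritic markers 5.86 to 6.45 and 6.0 to 6.34; 3 of the 6 measured B cell markers and 2 of the 7 myeloid ones had a mean under the median probe set level. MHC class II genes averaged 7.90 to 8.48 on SAP-deficient arrays and 8.27 to 8.58 on WT arrays, and markers of CD8 T and NK cells 6.38 to 6.53 and 6.34 to 6.41. The arrays resembled each other across genotype. Over probe sets that measure none of the 8 genes, deviations from the genotype means correlated at 0.52 to 0.73 between arrays of equal replicate number. Between all other arrays of opposite genotype they correlated at -0.10 or below. Such deviations cancel within a genotype, so positive values for equal numbers force negative ones elsewhere on average. The levels themselves, over all probe sets, correlated at 0.996 to 0.998 between equal numbers, against 0.989 to 0.994 between the others. Equal numbers are called matched pairs 1 to 3 here. The numbers follow accession order and the labels state no pairing, so the pairs come from the data.

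**Figure D1:**
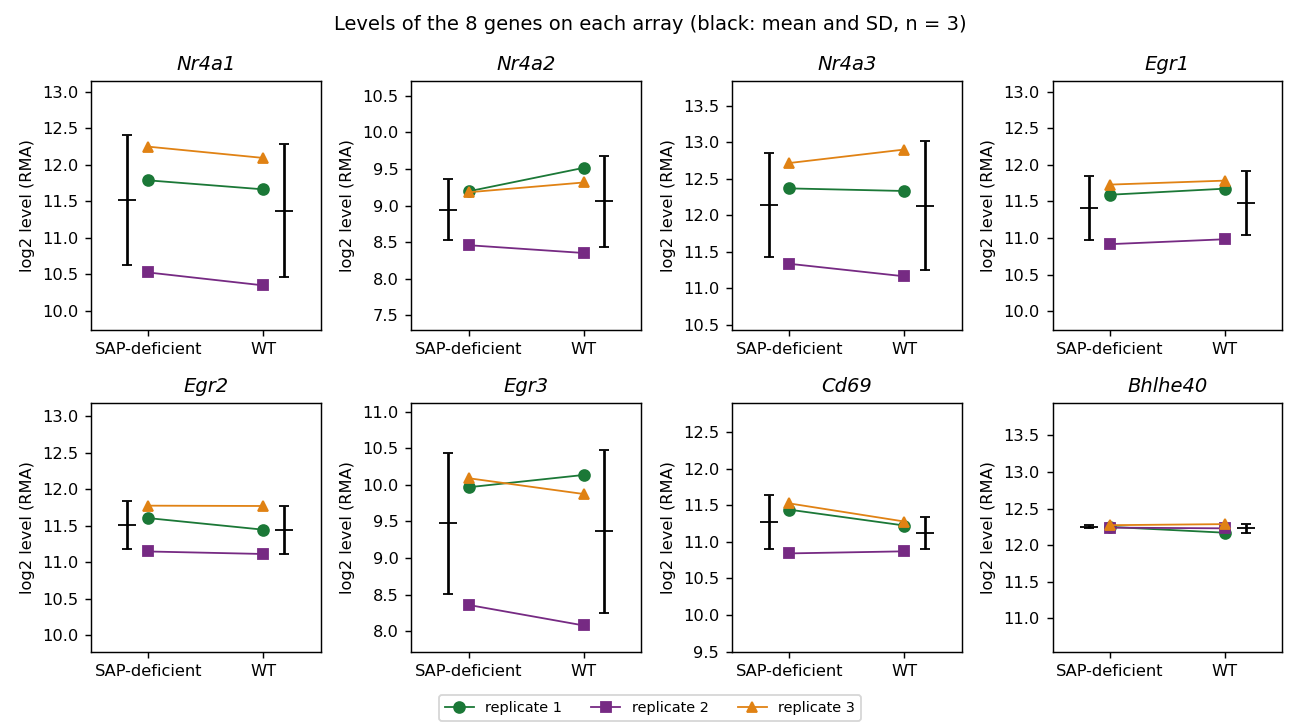
Log2 expression level of each gene (vertical axis, of equal span in every panel) on the 3 SAP-deficient and 3 WT arrays, with lines joining matched pairs and black bars showing mean and SD. Replicate 2 of both genotypes is lowest for every gene but Bhlhe40, and the lines are nearly flat.

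None of the 8 genes differed detectably between SAP-deficient and WT cells in the comparison by genotype alone. Limma called 0 of the 17 probe sets at an adjusted p under 0.05, against 0 of all 45037 (0%), and no gene was called (0% of genes). At an unadjusted p under 0.05 it listed 0 of the 17, against 1.64% of all probe sets, and 0 of the 8 genes, against 1.31% of all genes. The median change of the 8 genes, each by its brightest probe set, was 0.05, against 0.01 over all genes. Of the 8, 6 were higher and 2 lower, as were 9700 and 8493 of all 18193 genes. Among the 9096 genes above the median level, 5698 were higher and 3398 lower. Over the 17 probe sets the median change was -0.03, with 8 higher and 9 lower. The SAP-deficient and WT arrays overlapped for every one of the 17 probe sets. Over all probe sets 5.7% did not overlap. For 17 probe sets of 8 genes, a count of 0 is near that share.

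Among the Nr4a genes, the level depended far more on the replicate than on the genotype. Nr4a1, which encodes NUR77 and is widely used as a reporter of T cell receptor signal strength, was at 11.79, 10.53 and 12.25 in SAP-deficient replicates 1 to 3, against 11.66, 10.35 and 12.09 in WT replicates 1 to 3. Replicate 2 was lowest and replicate 3 highest in both genotypes, and the arrays spanned a 3.72-fold range. The genotype difference was 0.15 with a 95% interval of -1.05 to 1.36 (limma adjusted p = 1.00). Nr4a3, which encodes NOR1 and is a target of NFAT, was at 12.37, 11.34 and 12.72 in SAP-deficient replicates 1 to 3, against 12.33, 11.17 and 12.90 in WT replicates 1 to 3. It kept the same order of replicates and a 3.33-fold range, with a genotype difference of 0.01 (-1.07 to 1.08). Its other probe sets were dim, at mean levels of 6.36 and 4.47, and differed by -0.08 and 0.11.

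Nr4a2, which encodes NURR1, was at 9.20, 8.46 and 9.18 in SAP-deficient replicates 1 to 3, against 9.52, 8.35 and 9.32 in WT replicates 1 to 3. Here replicates 1 and 3 were close and replicate 2 was again lowest, with a genotype difference of -0.12 (-0.86 to 0.63). The 6 probe sets of this gene had mean levels from 6.42 to 9.0 and differences from -0.18 to 0.03, and 5 of them were lower in SAP-deficient cells. They share a gene and are not independent measurements. Both arrays of replicate 2 were lowest for all 6.

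The Egr genes repeated this picture with ranges of different size. Egr1 was at 11.59, 10.92 and 11.73 in SAP-deficient replicates 1 to 3, against 11.67, 10.98 and 11.79 in WT replicates 1 to 3. Every SAP-deficient array lay slightly under its matched WT array, by -0.08, -0.07 and -0.05 in pairs 1 to 3, and the difference was -0.07 (-0.66 to 0.53). Egr2 was at 11.60, 11.15 and 11.77 in SAP-deficient replicates 1 to 3, against 11.45, 11.11 and 11.77 in WT replicates 1 to 3. Its range was 1.58-fold and its difference 0.07 (-0.39 to 0.52), while its second probe set differed by -0.03. Egr3, which acts with Egr2 and is an NFAT target, was at 9.97, 8.36 and 10.09 in SAP-deficient replicates 1 to 3, against 10.14, 8.08 and 9.88 in WT replicates 1 to 3. This was the widest spread of the 8 genes, a 4.17-fold range, around a genotype difference of 0.11 (-1.30 to 1.52). The second, dimmer Egr3 probe set differed by -0.13 (-0.50 to 0.24), so the sign depended on the probe set.

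Cd69 was at 11.44, 10.84 and 11.53 in SAP-deficient replicates 1 to 3, against 11.22, 10.87 and 11.28 in WT replicates 1 to 3. Replicates 1 and 3 were somewhat higher in SAP-deficient cells and replicate 2 was not, and the difference was 0.15 (-0.29 to 0.58). Bhlhe40 stood apart from the other 7 genes. It was at 12.25, 12.24 and 12.27 in SAP-deficient replicates 1 to 3, against 12.17, 12.23 and 12.29 in WT replicates 1 to 3, with no low replicate. The arrays spanned a 1.08-fold range, and the difference of 0.02 had an interval of -0.11 to 0.16. Bhlhe40 was measured at a level higher than 98.3% of genes. Nr4a3, at a level higher than 98.0% of genes, spanned a 3.33-fold range. Whether the level bears on the narrow range of Bhlhe40 was not tested.

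With the matched pairs as a block, the intervals were much narrower and no member was called. This fit was planned with the pairing already known from these data. The genotype difference of Nr4a1 was then 0.15 with an interval of 0.05 to 0.25 (limma, unadjusted p = 0.00870, adjusted p = 0.722 over genes), with 0.12, 0.18 and 0.15 within pairs 1 to 3. Cd69 was at 0.15 (0.01 to 0.29), with an unadjusted p of 0.0432, an adjusted p of 0.814 (limma) and values of 0.22, -0.03 and 0.25 within the pairs. These were 2 of the 8 genes, both higher in SAP-deficient cells, and 6.1% of all genes had an unadjusted p under 0.05 in the same fit (3.49% higher and 2.61% lower). By the brightest probe set, the sign was the same in all 3 pairs for Nr4a1 and Egr2, which were higher, and for Egr1, which was lower. These are 3 of the 8 genes, as for 28.8% of all genes. The second Egr2 probe set was mixed, at 0.15, -0.10 and -0.13 within pairs 1 to 3. For the remaining genes the blocked intervals were -0.31 to 0.08 for Nr4a2, -0.13 to 0.15 for Nr4a3, -0.17 to 0.03 for Egr1, -0.05 to 0.18 for Egr2, -0.09 to 0.31 for Egr3 and -0.07 to 0.12 for Bhlhe40. The largest bound among all 8 genes, that of Nr4a2, corresponds to a 1.24-fold difference. In this fit 3 of the 17 probe sets had an unadjusted p under 0.05, against 5.69% of all, the additional 1 being an Nr4a2 probe set at -0.18 (-0.35 to -0.01). All had an adjusted p of 0.851 or more over probe sets. Sh2d1a was the only gene called in this fit (0.0055% of genes, 0.00222% of probe sets).

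**Figure D2:**
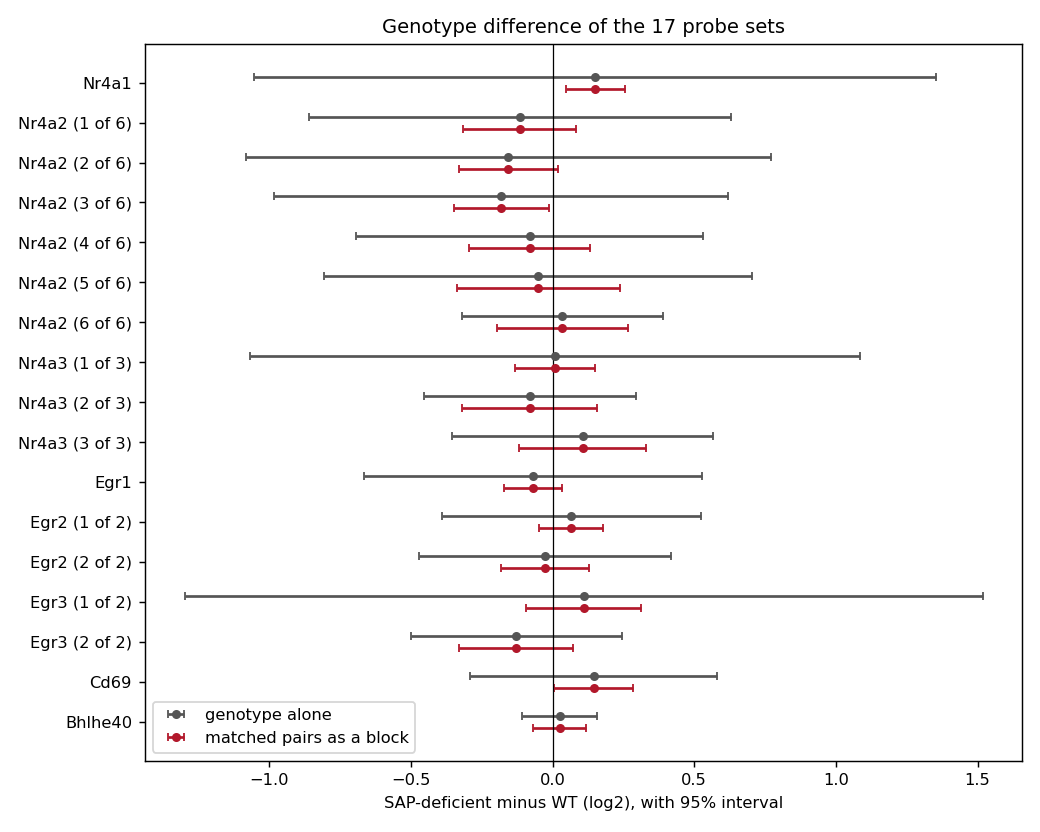
SAP-deficient minus WT difference (log2, horizontal axis) of the 17 probe sets, ordered from bright to dim within a gene, with 95% intervals from the limma fit on genotype alone (grey) and with matched pairs as a block (red). All grey intervals include 0; among the red ones those of Nr4a1, Cd69 and 1 Nr4a2 probe set do not.

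The spread of these genes lay mostly between replicate numbers, as it did for several other gene sets. Matched pairs held a median of 97.6% of the variance of the 8 genes over the 6 arrays and genotype 1.27%, against medians of 66.9% and 6.36% over all genes. The median share of the pairs was 80.9% over genes above the median level, 92.9% over 39 other genes induced early by the T cell receptor, 94.3% over 5 reported BHLHE40 targets and 92.3% over 8 T cell markers, so a high share is not particular to the 8 genes. The share of the pairs was 99.1% for Egr1, 98.9% for Nr4a1, 98.8% for Nr4a3, 98.3% for Egr3, 97.0% for Egr2, 94.3% for Nr4a2 and 86.6% for Cd69, but 60.6% for Bhlhe40. It was over 80% for 7 of the 8 genes and 15 of the 17 probe sets, as for 35.2% of all genes, 30.2% of all probe sets and 51.3% of genes above the median level. A range of 1 log2 unit or more was reached by 4 of the 8 genes, Nr4a1, Nr4a2, Nr4a3 and Egr3, and by 5.72% of all genes and 8.15% of genes above the median level. These are descriptions: the genes were picked with this pattern known, and the pairs were found in the same arrays. The lists used here and below share genes, so their counts are not separate. Tnfrsf4 and Il2ra are both early genes and reported BHLHE40 targets. Reported NR4A targets include Ifng, also listed for BHLHE40, and Il2 and Irf4, also listed as early genes.

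Replicate 2 was the low one. Both of its arrays lay under the other 4 for 7 of the 8 genes and for 16 of the 17 probe sets, as did 17.6% of all genes and 16.1% of all probe sets; this count was chosen after the values were seen. The mean of pair 2 lay under the gene's overall mean by 1.20 for Egr3 (a deviation of -1.20), and the deviations were -1.01 for Nr4a1, -0.89 for Nr4a3, -0.60 for Nr4a2, -0.50 for Egr1, -0.35 for Egr2 and -0.34 for Cd69. Pair 3 was highest for 6 of the 8, and pair 1 for Nr4a2 and Egr3. Pairs 1 and 3 differed most for Nr4a3 (0.21 and 0.67) and Nr4a1 (0.28 and 0.73). Pair 2 also had the lowest mean of the T cell markers, at 11.31 on the SAP-deficient array and 11.36 on the WT array. Both of its arrays were lowest for 5 of these 8 markers. The mean of the myeloid and dendritic markers was lowest there too, at 5.86 and 6.0, with Lyz2 at 6.42 and 6.35. Both arrays of pair 2 were lowest for 3 of these 7 markers. The log2 of the summed linear levels ranged from 14.61 to 14.97 for T cell markers on SAP-deficient arrays and from 14.64 to 14.98 on WT arrays, and for myeloid markers from 8.96 to 9.61 and from 9.08 to 9.50. The X-inactivation RNA Xist was at 12.50, 8.19 and 6.26 in SAP-deficient replicates 1 to 3. In WT replicates 1 to 3 it was at 12.50, 8.21 and 5.81. In both genotypes it was thus highest in replicate 1 and lowest in replicate 3, with replicate 2 between them. The Y-linked Eif2s3y was at 2.91, 9.98 and 9.76 in SAP-deficient replicates 1 to 3, against 3.54, 9.96 and 9.80 in WT replicates 1 to 3. Replicate 1 of both genotypes thus had high Xist and low Eif2s3y, and replicates 2 and 3 had high Eif2s3y. These sex-linked transcripts therefore differed between matched pairs. The 4 measured genes of the sex-linked list averaged 5.41 to 8.26 on SAP-deficient arrays and 5.80 to 8.21 on WT arrays. That average mixes Xist with Y-linked genes, which went in opposite directions. Heat shock and handling genes averaged 10.48 to 10.59 on SAP-deficient arrays and 10.53 to 10.67 on WT arrays. Proliferation genes averaged 10.26 to 10.34 on SAP-deficient arrays and 9.61 to 10.42 on WT arrays, with the low value in WT replicate 3. In such bulk RNA, fewer stimulated cells and less transcript per cell cannot be told apart, and the part that these markers play in the spread was not tested.

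**Figure D3:**
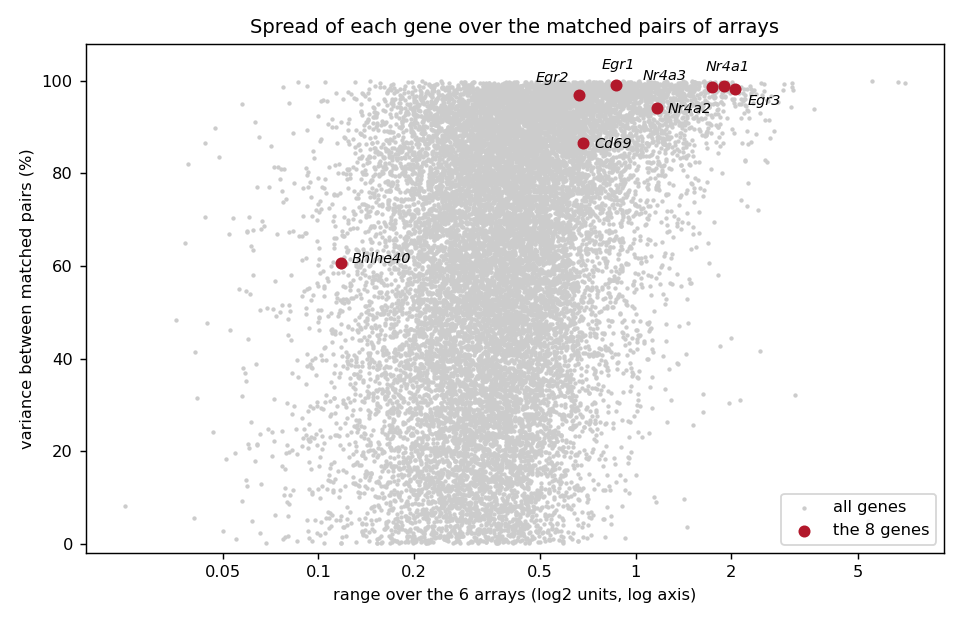
Share of each gene's variance that lies between matched pairs (vertical axis, %) against its range over the 6 arrays (horizontal axis, log2 units on a log scale), for all genes (grey) and the 8 genes (red). Egr3, Nr4a1 and Nr4a3 lie at ranges above 1.7 with over 98% between pairs, and Bhlhe40 lies at 0.12 and 60.6%.

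The partners and relatives of these factors showed the replicate pattern in part. Nab2, an EGR target gene that encodes a corepressor of EGR proteins, was at 10.61, 10.04 and 10.82 in SAP-deficient replicates 1 to 3, against 10.69, 10.15 and 10.76 in WT replicates 1 to 3, low in replicate 2 like the Egr genes. Its paralogue Nab1 did not follow them, at 9.89, 9.95 and 10.14 in SAP-deficient replicates, against 9.90, 9.86 and 10.11 in WT replicates. Egr4, the remaining EGR gene, was dim, with means of 5.66 ± 0.29 in SAP-deficient and 5.61 ± 0.10 in WT cells (SD, n = 3 each). S1pr1, the receptor that CD69 removes from the surface, was dim as well, at 4.29 ± 0.28 and 4.21 ± 0.05. Klf2, the activator of S1pr1, was at 6.83 ± 0.33 in SAP-deficient and 7.04 ± 0.39 in WT cells. Of the 11 genes of this list, limma called 0 (0 of all genes, 0%). By genotype alone 0 had an unadjusted p under 0.05, against 1.31% of all genes. The blocked fit gave such a p for 6.1% of all genes. In the blocked fit 1 higher gene, the NR4A partner Rxra (0.42 ± 0.13, SE), and 1 lower gene, Klf2 (-0.21 ± 0.09), had an unadjusted p under 0.05, with adjusted p-values of 0.722 and 0.814 (limma). The Rxra values within pairs 1 to 3 were 0.45, 0.03 and 0.79. Lgals1 and Myl12a, whose proteins are reported ligands of CD69, had the highest levels of the list, with changes of 0.07 and 0.01.

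Of 24 genes of the signalling route into these genes, 22 were measured and 0 were called in either fit. Their median range was 0.49, against 1.02 for the 8 genes and 0.39 for all genes. Both arrays of replicate 2 were lowest for 5 of the 22, against 17.6% of all genes. Among these was Nfatc1, at 10.70, 9.42 and 10.85 in SAP-deficient replicates 1 to 3, against 10.66, 9.50 and 10.98 in WT replicates. Its range was 1.56, with 99.5% of its variance between pairs. Crem ranged over 1.36 and was also low in replicate 2. Both genes were named after their values were seen. Nfatc2 went the other way and was highest in replicate 2. By genotype alone 0 of the 22 had an unadjusted p under 0.05, against 1.31% of all genes. In the blocked fit, where 6.1% of all genes had one (3.49% higher and 2.61% lower), 3 of the 22 had, all higher in SAP-deficient cells. These were Hdac7, which represses Nr4a1 through MEF2 (0.31 ± 0.11, SE), the calcineurin subunit gene Ppp3ca (0.22 ± 0.09) and Nfatc2 (0.22 ± 0.08), with adjusted p-values of 0.777, 0.800 and 0.775 (limma). The most highly measured, the kinase genes Map2k1 and Prkcq and the ETS factor gene Elk3, differed by 0.07, -0.04 and 0.02.

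Genes reported as EGR targets gave a median change of -0.004 over 16 genes, with 8 higher and 8 lower and 0 called. Both arrays of replicate 2 were lowest for 7 of the 16, against 17.6% of all genes. In the blocked fit 1 higher and 2 lower genes of the 16 had an unadjusted p under 0.05, against 6.1% of all genes. They were the inhibitory receptor gene Lag3 at -0.25 ± 0.06 (SE), the ubiquitin ligase gene Cblb at -0.15 ± 0.06 and the stress-response gene Ndrg1 at 0.12 ± 0.04, with adjusted p-values of 0.480, 0.800 and 0.775 (limma). Cblb varied over 1.21 log2 units, low in replicate 2, with 96.8% of its variance between pairs. Tnfrsf9 (4-1BB), another reported target, ranged over 0.19, and the cell cycle inhibitor gene Cdkn1a over 0.19.

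Of 13 genes reported as NR4A targets 12 were measured, 0 were called, and the median change was 0.05. In the blocked fit 6 of the 12 had an unadjusted p under 0.05, 4 higher and 2 lower, against 6.1% of all genes. The inhibitory receptor gene Havcr2 (TIM-3) was at 0.49 ± 0.07 (SE) with 0.61, 0.52 and 0.34 within the pairs, and the pro-apoptotic Bcl2l11 (BIM) at 0.40 ± 0.06 with 0.42, 0.38 and 0.39. Their adjusted p-values were 0.116 and 0.173 (limma). When both arrays of pair 3 were left out, an alternative added after seeing the data, both were among 36 genes called. Without pair 1, where 3 genes were called, and without pair 2, where 1 was, neither was called. The further genes were Runx1 at 0.22 ± 0.08, Tox2 at 0.20 ± 0.07, Pdcd1 (PD-1) at -0.17 ± 0.07 and Entpd1 (CD39) at -0.40 ± 0.16, with adjusted p-values from 0.754 to 0.805 (limma). The Entpd1 value came largely from pair 2, with -0.11, -0.94 and -0.13 within pairs 1 to 3, and the Pdcd1 values within the pairs were -0.20, -0.22 and -0.08. This list was written with earlier results for some of its genes known. All 5 genes reported as targets of BHLHE40 had their lowest arrays in replicate 2, as did 17.6% of all genes, unlike Bhlhe40 itself. Of these, Il10 varied over 2.18 log2 units and Ifng over 1.09, and the changes of Csf2 and Ifng were 0.10 ± 0.21 and -0.02 ± 0.29 by genotype alone.

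**Figure D4:**
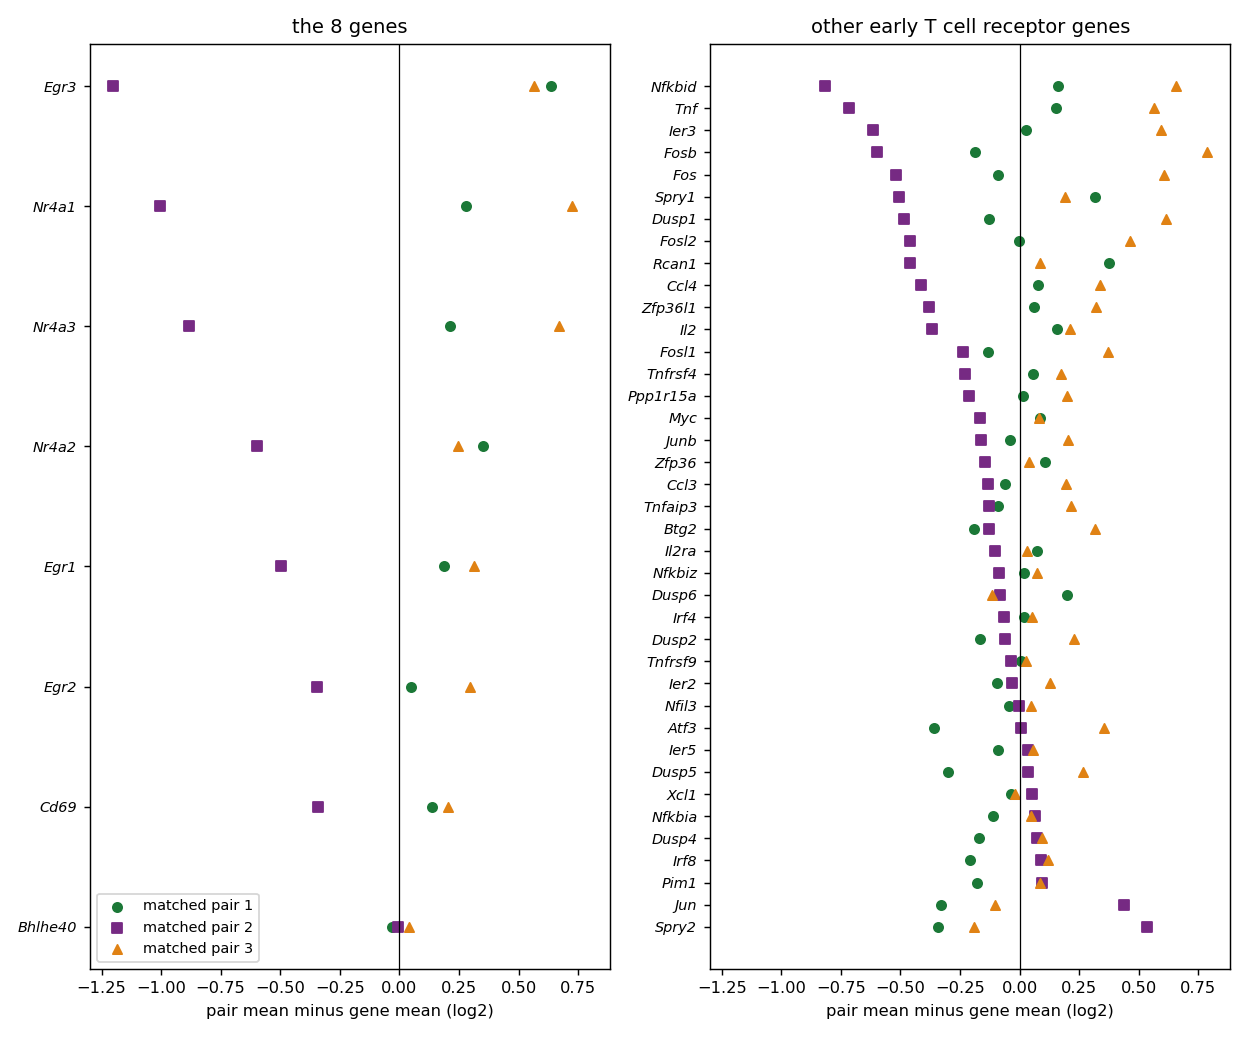
Mean of each matched pair minus the gene's mean over all 6 arrays (log2, horizontal axis) for the 8 genes (left) and 39 other genes induced early by the T cell receptor (right), sorted by pair 2. Pair 2 is far to the left for most of the 8 genes, while the early genes run from Nfkbid, at -0.82, to Spry2, at 0.53.

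Many other genes induced early by the T cell receptor were low in replicate 2 as well. Both of its arrays were lowest for 21 of the 39, against 17.6% of all genes, and pair 3 was highest for 28 of the 39, against 6772 of all 18193 genes. Their median range was 0.59, against 1.02 for the 8 genes. Nfkbid, which encodes an atypical IκB protein, came closest to the Nr4a genes, at 12.01, 11.04 and 12.50 in SAP-deficient replicates 1 to 3, against 12.04, 11.05 and 12.54 in WT replicates 1 to 3, with 99.9% of its variance between pairs. The cytokine gene Tnf was at 11.91, 10.94 and 12.19, against 11.73, 10.96 and 12.27. The AP-1 gene Fos was highest in replicate 3, at 9.93, 9.57 and 10.36 in SAP-deficient replicates, against 9.78, 9.29 and 10.75 in WT replicates. Jun went the other way and was highest in replicate 2, at 9.33, 10.05 and 9.59 in SAP-deficient replicates, against 9.25, 10.07 and 9.44 in WT replicates. The MAP kinase inhibitor gene Spry2 was also highest there. Irf4 and Tnfrsf9 hardly varied, with ranges of 0.14 and 0.19. Those named in this paragraph after their values were seen are Nfkbid, Tnf, Fos, Jun and Spry2.

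By genotype, 0 of the 39 were called, and 1, the chemokine gene Xcl1, had an unadjusted p under 0.05 (-0.59 ± 0.14, SE, limma adjusted p = 1.00). Of all genes, 1.31% had an unadjusted p under 0.05 by genotype alone and 6.1% in the blocked fit. In the blocked fit 5 higher and 1 lower gene of the 39 had one. The higher ones were the stress-response gene Ier3 (0.25 ± 0.05), the NF-κB regulator genes Tnfaip3 (0.15 ± 0.05) and Nfkbiz (0.14 ± 0.05), the interferon regulatory factor gene Irf8 (0.22 ± 0.07) and the MAP kinase phosphatase gene Dusp1 (0.15 ± 0.06). Adjusted p-values of these 6 ran from 0.403 to 0.800 (limma). The highest levels belonged to Il2, Tnfrsf4 and Ccl4, with changes of 0.00, 0.01 and 0.10.

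The genes most like each of the 8 were sought among 1459 genes above the median level with an SD over the arrays of at least 0.3, by Pearson's correlation over the 6 arrays. The arrays form 3 pairs, so such values rest on few independent points and are descriptions only. Nearest to Nr4a1 were Ubash3b, Inpp5a and Tax1bp1 (r = 0.996 to 0.998), and nearest to Nr4a3 were Slamf7, Egln3 and Fes (0.998 to 1.00). Nr4a2 was closest to Ptgs2, Il10 and Ifng (0.991 to 0.997). Egr1 was closest to Eea1, Slc13a3 and Rgcc (0.997 to 0.998), Egr2 to Dnajc27, Tnfsf14 and Klf9 (0.997 to 0.999) and Egr3 to Casp6, Igfbp4 and Mpp1 (0.993 to 0.996). For Cd69 these were Sh3gl3, Tnfrsf21 and Ak4 (0.974 to 0.984). Bhlhe40 had the weakest matches, with Hba-a2, Exosc6 and Mcf2l at 0.928 to 0.957. Among the 8 genes themselves, Nr4a1 and Nr4a3 correlated at 0.989 and Nr4a2 and Egr3 at 0.972, while Bhlhe40 lay between -0.07 and 0.51 with the other 7.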

How the data were processed

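Gene expression was measured on 6 Affymetrix mouse arrays, 3 of SAP-deficient and 3 of WT cells, with 500 ng of RNA labelled per array. The authors deposited log2 levels of 45101 probe sets; per the submitters' processing notes they used Affymetrix Expression Console and RMA, which corrects background, equalises the arrays' distributions and summarises probes on the log2 scale. This hides changes in total RNA and compresses dim probe sets. For software versions and genome build the sources used here give nothing.

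After 64 control probe sets were left out, limma (version 3.58.1, R version 4.3.3) was fitted to all 45037 others on genotype, with eBayes and an intensity trend. P-values were adjusted by Benjamini-Hochberg over probe sets and, with 1 brightest single-gene probe set for each of 18193 genes, over genes. Intervals are 95%. Symbols were updated through RefSeq, which matched 34741 of 34945 single-gene probe sets. No low-value filter was applied, so all 17 probe sets were tested. The fit on genotype alone was tried on simulated arrays with independent noise, without the shared spread of matched pairs. The blocked fit was not tried on simulated data. Matched pairs were found by correlation over probe sets of no member; the labels pair nothing. The members and lists were chosen with earlier results of these data known. Named genes are the members, Sh2d1a, the 3 genes most like each member, a few fixed partners, and from each list those with an unadjusted p under 0.05 in either fit (at most 6) and the 3 with the highest levels. The alternatives tried are given in the closing section. The number of arrays limits the precision.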

Additional observations from a re-analysis of the deposited data

How the results depend on the processing

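No probe set of the 8 genes was called in the 17 alternatives fitted over probe sets, of which 2 filters on level tested 16 and 11 of them. Over genes, 19 alternatives gave 152 changes, of which 0 passed the threshold. Of these changes, 130 kept their sign and 22 did not. Leaving out 1 array gave ranges of -0.36 to 0.65 for Nr4a1, -0.47 to 0.13 for Nr4a2, -0.48 to 0.41 for Nr4a3, -0.32 to 0.18 for Egr1, -0.10 to 0.25 for Egr2, -0.53 to 0.67 for Egr3 and -0.0046 to 0.0542 for Bhlhe40, and 0.02 to 0.36 for Cd69, the only gene with 1 sign throughout. Such removals unbalance the matched pairs. Other turned signs were Egr1 at 0.0276 with array weights, Egr3 at -0.00920 with the mean of its probe sets, and, in the replicate block with both arrays of 1 pair left out, Nr4a3 at -0.00665 (pair 1) and -0.0745 (pair 2) and Bhlhe40 at -0.0024 (pair 1). The call of Sh2d1a as the only gene came with robust variance (1 gene), without _x_at and _s_at probe sets (1), with the replicate block (1 gene and 1 probe set) and without WT replicate 2, so leaving out 1 array gave 0 to 1 genes. The cause was not tested. In the block with a pair left out, an addition made after seeing the data, the calls were 6 probe sets and 3 genes without pair 1, 3 and 1 without pair 2, and 40 and 36 without pair 3. The 8 genes were not among them. The dimmest probe set, of Nr4a3, had a mean of 4.47, under the median level of 5.75, where RMA compresses differences.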
